A study of Mus musculus with 9 samples.

Results

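The Arl (Arf-like) genes encode small GTPases related to Arf1, and 10 of them were described here: Arl1, Arl2, Arl3, Arl4a, Arl4c, Arl5a, Arl5b, Arl6, Arl8a and Arl8b. They were taken from the expression table by symbol and are 10 of its 21899 genes. The data are RNA-seq of N2a cells (Neuro-2a, a mouse neuroblastoma line) in 3 groups of 3 libraries, made to follow lipid metabolism after loss of Arf1. The control group carried a hairpin against luciferase (shlucif, a gene these cells lack) and has the genotype luciferase knockdown. The other groups carried 1 of 2 hairpins against Arf1 (shArf1-1 or shArf1-2), have the genotype Arf1 knockdown, and are together called Arf1-deficient. The hairpins were delivered in lentiviral vectors, so the controls share the vector and differ in the target. All groups have the tissue brain, the cell type neuroblast and no treatment in their labels. Nothing in the labels says that replicates came from separate cultures, so p-values measure the spread between these libraries, which may be technical.

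Total counts were 13786986, 13381570 and 13631004 with shlucif, 12516668, 11182479 and 15594615 with shArf1-1, and 14659400, 13463280 and 14159344 with shArf1-2. Levels are given in FPKM, the count scaled by gene length and by the library total, which allows genes of different length to be compared. Tests were run on counts with edgeR, which kept 12448 genes with enough counts, among them all 10 Arl genes. CPM are counts scaled by library total and by edgeR's TMM factors, without gene length. A gene was called higher or lower where its adjusted p was under 0.05. The comparisons of either hairpin with shlucif share the 3 control libraries.

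Arl proteins switch between a GDP-bound and a GTP-bound form, and in the GTP-bound form they hold effector proteins on a membrane. Arl1 and the Arl5 proteins act at the trans-Golgi, Arl8 proteins on lysosomes, Arl3 and Arl6 in cilia, Arl2 on tubulin folding and lipid-modified cargo, and Arl4 proteins at the plasma membrane. Arf1, their relative, recruits coat proteins at the Golgi.

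Arf1 (ENSMUSG00000048076, chr11:59211412-59228270, minus strand of GRCm38 in GENCODE) was at 328, 316 and 328 FPKM with shlucif, 130.3, 128 and 127 FPKM with shArf1-1, and 166, 157 and 171 FPKM with shArf1-2. Every Arf1-deficient library lay below every shlucif library, so Arf1 RNA was reduced and not absent. Against shlucif, Arf1 changed on the log2 scale by -1.21 (standard error 0.090, adjusted p = 6.05e-08) by the quasi-likelihood test of edgeR with Benjamini-Hochberg adjustment, lower in 6 of 6 libraries. It was -1.39 with shArf1-1 and -1.05 with shArf1-2, so that shArf1-1 left less Arf1 RNA (difference 0.34, adjusted p = 1.16e-05 by the same edgeR test). In its transcripts, 3.18% of the 75-base stretches also occur in AC127331.2 or Gm19587, so a part of its counts could belong to those genes.

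The label neuroblast was compared with 20 neuronal and sympathetic marker genes, of which 18 had enough counts to be tested. Their summed level was 2806, 2725 and 2749 CPM with shlucif, 4950.2, 5089.9 and 4794 CPM with shArf1-1, and 4467, 4268 and 4523 CPM with shArf1-2. By CPM, Tubb3, a neuronal tubulin, was the most abundant in all libraries but shArf1-1 replicates 1 and 3, where Chgb was. In FPKM, which accounts for gene length, Tubb3 was above Chgb there too (712.93 against 486.48 and 611.07 against 517.26). Nefm had no count in any library, Nefl at most 2 counts and Th between 12 and 19 counts, so neurofilament and tyrosine hydroxylase were at or near 0 while most other markers of the label were present. Of the 18 tested markers, 15 were higher in Arf1-deficient cells, 1 (Map2) was lower and 2 did not pass, beside 31.6% higher and 32.9% lower of all tested genes. Markers of another cell type set the shlucif libraries apart. The summed level of 20 macrophage markers was 386, 341 and 318 CPM with shlucif, 7.40, 5.77 and 8.17 CPM with shArf1-1, and 9.40, 8.50 and 9.75 CPM with shArf1-2. Of the 16 tested, 14 were lower in Arf1-deficient cells and 2 (Mrc1 and Tmem119) were higher. Mrc1, with 4 to 9 counts in shlucif libraries, passed the count filter through its Arf1-deficient counts alone, so its call could only be higher. The 14 passed the count filter through their shlucif counts alone, so their calls could only be lower. Lyz2 was the most abundant of them with shlucif, at 93.3, 84.0 and 81.7 CPM, and Tmem119 in Arf1-deficient libraries. In all 6 Arf1-deficient libraries 8 of the 20 were at 0 counts while at least 1 shlucif library held counts: Itgam, Aif1, C1qa, C1qb, C1qc, Cx3cr1, Ctss and P2ry12. Of these, Aif1, C1qa, Cx3cr1 and P2ry12 had at most 5 counts in any shlucif library, so their zeros show no loss. In a bulk library, fewer cells of a type and less RNA per cell cannot be told apart.

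Other cell types had at most 4 tested marker genes each, and their calls are read beside the 64.5% of all tested genes that passed and the 32.9% that were lower. Of 8 fibroblast markers 4 were tested and 2 were lower, with Pdgfrb the most abundant with shlucif and a summed level of 43.9 to 45.3 CPM with shlucif and 15.7 to 23.0 CPM in Arf1-deficient libraries. Of 5 oligodendrocyte markers 3 were tested and 2 were lower (Cnp the most abundant, summed 97.7 to 102 CPM with shlucif and 63.8 to 81.8 CPM in Arf1-deficient libraries), and of 5 endothelial markers 3 were tested and 2 were lower (Pecam1 the most abundant, summed 26.2 to 28.2 CPM with shlucif and 11.5 to 15.8 CPM in Arf1-deficient libraries). Of 5 astrocyte markers only Aldh1l1 was tested, and it was lower. It passed the count filter through its shlucif counts alone, so its call could only be lower. Aqp4 and Slc1a3 were at 0 in every library, and the sum was 2.56 to 3.26 CPM with shlucif and 0.288 to 1.95 CPM in Arf1-deficient libraries. The part of these cell types in the Arl results was not tested.

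In Arf1-deficient cells, Arl5a rose, Arl1 rose mainly with shArf1-1, Arl3, Arl8a, Arl5b and Arl8b fell by between 0.20 and 0.43 on the log2 scale, and Arl4c was not counted at all. In the quasi-likelihood test of edgeR with Benjamini-Hochberg adjustment, 7 of the 10 passed: 2 were higher (Arl1 and Arl5a) and 5 lower (Arl3, Arl4c, Arl5b, Arl8a and Arl8b), while Arl2, Arl4a and Arl6 did not pass. Without shlucif replicate 3 the count was 4 of 10 (1 higher and 3 lower), so it depends on that library. Arl4c passed the count filter through its shlucif counts alone, so its call could only be lower. With at least 10 counts required in every library, which removes Arl4c, 6 passed (2 higher and 4 lower). Of all 12448 tested genes 64.5% passed, 31.6% higher and 32.9% lower, so the number of Arl genes past the threshold is near the background. Neither direction was tested against its share. Without overlap between the CPM of the 6 Arf1-deficient and the 3 shlucif libraries, 1 Arl gene was higher (Arl5a) and 3 were lower (Arl3, Arl4c and Arl8a), beside 27.9% and 30.1% of all tested genes. With shArf1-1 alone, 2 were higher and 5 lower (background 33.1% higher, 34.4% lower and 67.5% in either direction). With shArf1-2 alone, 1 was higher and 5 lower (background 30.9%, 32.6% and 63.4%). Between the hairpins, 1 Arl gene, Arl1, was lower with shArf1-2 (background 6.98% higher, 7.46% lower and 14.4% in either direction). Arl4c, without a count in either hairpin group, could not differ there. The median log2 fold change of the 10 genes, with Arl4c at its bound, was -0.20 in Arf1-deficient cells, -0.17 with shArf1-1 and -0.23 with shArf1-2, and that of all tested genes was 0.0033, -0.0013 and 0.0015. The median absolute change was 0.26 for the Arl genes and 0.37 for all tested genes in Arf1-deficient cells. Under every scaling tried (TMM, library size, upper quartile and DESeq2 size factors), none of the 7 Arl genes past the threshold changed direction. These scalings moved the median log2 fold change of all genes by at most 0.063. That is less than the smallest of the 7 changes (0.20), so unchanged directions show no stability.

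**Figure D1:**
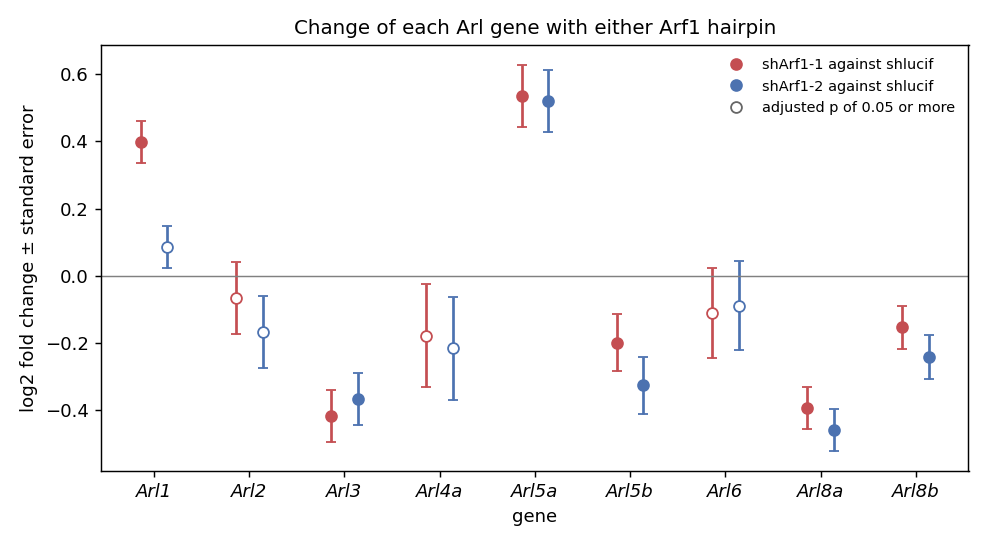
Log2 fold change ± standard error of 9 Arl genes (horizontal axis) with shArf1-1 (red) and shArf1-2 (blue) against shlucif, each hairpin with 3 libraries, Arl4c left out because it had no count with either hairpin; filled symbols have an adjusted p under 0.05. Arl5a stands highest with both hairpins (0.54 and 0.52), Arl8a and Arl3 lowest (between -0.37 and -0.46), and Arl1 lies apart between the hairpins (0.40 and 0.085).

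Levels differed widely within the family. In shlucif cells the order by mean FPKM (± SD, n = 3) was Arl8a (50.2 ± 2.77), Arl1 (41.2 ± 0.875), Arl8b (29.3 ± 1.77), Arl3 (28.4 ± 2.59), Arl5b (6.54 ± 0.908), Arl2 (6.45 ± 0.0385), Arl6 (5.87 ± 0.637), Arl5a (4.56 ± 0.166), Arl4a (1.71 ± 0.0259) and Arl4c (0.599 ± 0.0992). Neighbours whose ranges over libraries overlapped, and so did not differ beyond their spread, were Arl8b and Arl3, Arl5b and Arl2, and Arl2 and Arl6. In both Arf1-deficient groups Arl1 stood first, at 56.3 ± 4.86 FPKM with shArf1-1 and 45.9 ± 1.85 FPKM with shArf1-2, above Arl8a at 39.6 ± 0.723 and 38.3 ± 2.21 FPKM (SD, n = 3). Arl1 was below Arl8a in 3 of 3 shlucif libraries and above it in 6 of 6 Arf1-deficient libraries. Arl5a moved from place 8 with shlucif to place 5 in both Arf1-deficient groups, where its range overlapped that of Arl2. The 10 levels summed to 175 ± 7.11 FPKM with shlucif, 172 ± 10.2 FPKM with shArf1-1 and 159 ± 4.29 FPKM with shArf1-2 (SD, n = 3). Arl8a, Arl1, Arl8b and Arl3 held between 83.1% and 86.0% of that sum in every library.

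**Figure D2:**
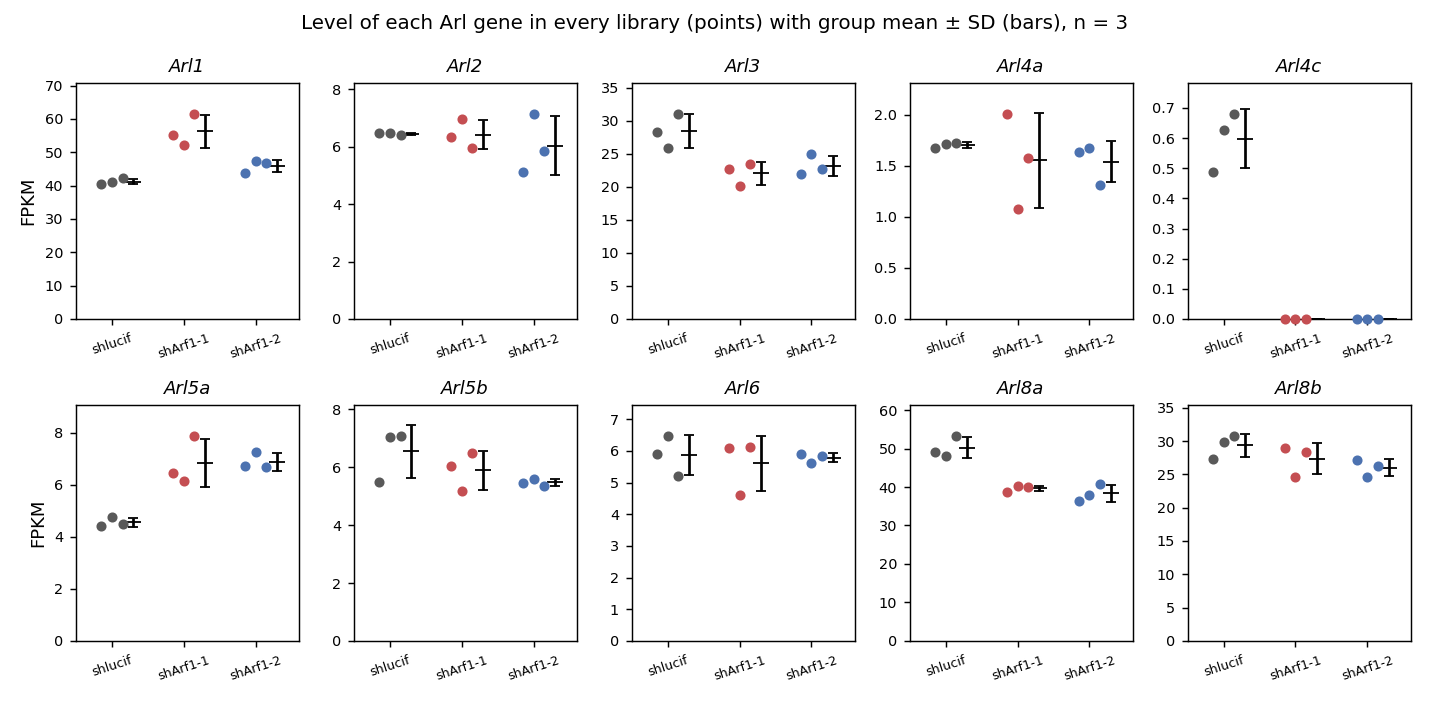
FPKM of each Arl gene (1 panel per gene, vertical axis from 0) in every library of shlucif, shArf1-1 and shArf1-2; points are libraries and bars the group mean ± SD (n = 3). Arl5a is above its shlucif range of 4.44 to 4.75 FPKM in all 6 Arf1-deficient libraries, Arl8a is below its shlucif range of 48.1 to 53.4 FPKM in all 6, and Arl4c is at 0 in all 6.

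Among the Golgi members, Arl1 (ENSMUSG00000060904, chr10:88730858-88744094, plus strand) recruits golgins with a GRIP domain and arfaptins to the trans-Golgi. It was at 40.5, 41.0 and 42.2 FPKM with shlucif, 55.2, 52.1 and 61.6 FPKM with shArf1-1, and 43.8, 47.3 and 46.7 FPKM with shArf1-2. All Arf1-deficient libraries were above all shlucif libraries in FPKM, with the shArf1-1 libraries the highest, but after TMM scaling the CPM ranges of Arf1-deficient cells and controls overlapped. Its log2 fold change was 0.25 (standard error 0.090, adjusted p = 0.0238) by the quasi-likelihood test of edgeR with Benjamini-Hochberg adjustment, with 6 of 6 libraries above the shlucif mean. It was 0.40 (standard error 0.062, adjusted p = 9.14e-07) with shArf1-1 and 0.085 (standard error 0.063, adjusted p = 0.242) with shArf1-2 by the same edgeR test, and the difference between the hairpins was itself past the threshold, at -0.31 (standard error 0.062, adjusted p = 0.000521) by the same edgeR test. Between the hairpins 10 of 18 tested neuroblast markers also differed, 9 of them lower with shArf1-2, and their part in the Arl1 difference was not tested. The call over both hairpins was lost when shlucif replicate 1, 2 or 3 was left out (adjusted p = 0.0791, 0.0804 and 0.0503 by the same edgeR test, with a range of 0.00508 to 0.0804 over 17 alternatives). With shArf1-2 the call was gained under library size scaling and with limma on FPKM. The Arl1 locus overlaps the antisense pseudogene Gm4925, 6.54% of the 75-base stretches of its transcripts also occur in Gm18541, and whether counting used strand is not given in the sources used here.

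Of 9 tested Arl1 partner genes (golgins, arfaptins, Sys1 and the Arf exchange factors Arfgef1 and Arfgef2), 3 were higher and 6 did not pass in Arf1-deficient cells, a share of 33.3% past beside 64.5% of all tested genes (31.6% higher). Their median log2 fold change was 0.15. Golga1, a GRIP-domain golgin, changed by 0.76 (standard error 0.10, adjusted p = 3.18e-06), Arfip2, an arfaptin, by 0.28 (standard error 0.073, adjusted p = 0.00218), and Arfgef1 by 0.15 (standard error 0.054, adjusted p = 0.0202), each by the quasi-likelihood test of edgeR with Benjamini-Hochberg adjustment. Without shlucif replicate 1 the call for Arfgef1 was lost (adjusted p = 0.145 by the same edgeR test). Between the hairpins 1 of the 9 partner genes passed (11.1%, beside 14.4% of all tested genes): Arfip2, lower with shArf1-2 than with shArf1-1. That call was lost in 6 of 17 alternatives, and its value is given with the other differences between hairpins. Arfrp1, which acts upstream of Arl1 at the Golgi, was higher by 0.24 (standard error 0.072, adjusted p = 0.00688) by the same edgeR test.

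Arl5a (ENSMUSG00000036093, chr2:52397951-52424901, minus strand) and Arl5b (ENSMUSG00000017418, chr2:15049395-15082456, plus strand) are paralogs that bring the GARP tether, which receives vesicles from endosomes, to the trans-Golgi. Arl5a was at 4.44, 4.75 and 4.50 FPKM with shlucif, 6.47, 6.15 and 7.90 FPKM with shArf1-1, and 6.71, 7.26 and 6.67 FPKM with shArf1-2. It was higher in each Arf1-deficient library than in any shlucif library. Arl5b was at 5.49, 7.04 and 7.09 FPKM with shlucif, 6.03, 5.16 and 6.48 FPKM with shArf1-1, and 5.46, 5.61 and 5.36 FPKM with shArf1-2. Its ranges overlapped, shlucif replicate 1 being as low as the Arf1-deficient libraries. Arl5a rose by 0.53 (standard error 0.087, adjusted p = 2.91e-05) on the log2 scale by the quasi-likelihood test of edgeR with Benjamini-Hochberg adjustment, the most among the 10 genes, and the fold change was 0.54 with shArf1-1 and 0.52 with shArf1-2. That of Arl5b over both hairpins was -0.26 (standard error 0.086, adjusted p = 0.0114) by the same edgeR test, with 6 of 6 libraries below the shlucif mean in CPM.

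The call for Arl5b, though not its direction, depended on single control libraries and on the scaling. It was lost without shlucif replicate 2 (log2 fold change -0.22, adjusted p = 0.0767) or 3 (-0.20, adjusted p = 0.0953) by the quasi-likelihood test of edgeR with Benjamini-Hochberg adjustment, under library size scaling (-0.20, adjusted p = 0.0502), and with limma on log2(FPKM + 1) and log2(FPKM + 0.1) (adjusted p = 0.0964 and 0.0979), and over 17 alternatives the adjusted p ranged from 0.00125 to 0.0979. With shArf1-1 alone the log2 fold change of Arl5b was -0.20 (standard error 0.085, adjusted p = 0.0386) and with shArf1-2 alone -0.33 (standard error 0.085, adjusted p = 0.00135) by the same edgeR test. The shArf1-1 call was lost in 8 of 17 alternatives, among them those without shlucif replicate 2 or 3, shArf1-1 replicate 1 or 2 and shArf1-2 replicate 1 (adjusted p = 0.168, 0.207, 0.0635, 0.193 and 0.0502 by the same edgeR test, range 0.00109 to 0.246 over the alternatives). The shArf1-2 call was lost with limma on log2(FPKM + 1) and log2(FPKM + 0.1) only (adjusted p = 0.0638 and 0.0653, range 1.27e-05 to 0.0653).

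The ratio of Arl5a to Arl5b within a library needs no scaling between libraries. In FPKM it was 0.808, 0.675 and 0.635 with shlucif, 1.07, 1.19 and 1.22 with shArf1-1, and 1.23, 1.30 and 1.24 with shArf1-2. Arl5a was below Arl5b in 3 of 3 shlucif libraries and above it in 6 of 6 Arf1-deficient libraries, so their order was exchanged and the ranges of the ratio were apart. The mean log2 ratio was 0.78 higher in Arf1-deficient cells (two-sided exact permutation p = 0.0238, the smallest possible with 84 ways to choose 3 of 9 libraries), and the p adjusted over the 4 paralog pairs set for this test was 0.0635, which misses the threshold. The Arl4a to Arl4c pair could not be tested, since Arl4c had libraries at 0, and was counted as not passed. When only the 3 testable pairs were adjusted over, a choice made after the data were seen, the adjusted exact permutation p was 0.0476.

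All 4 GARP subunit genes were tested: 2 were higher, 1 was lower and 1 did not pass, near the 64.5% of all tested genes that passed. Their median log2 fold change was 0.19. Vps53 changed by 0.64 (standard error 0.081, adjusted p = 1.11e-06), Vps52 by 0.20 (standard error 0.071, adjusted p = 0.0173) and Vps51 by -0.30 (standard error 0.072, adjusted p = 0.00127), each by the quasi-likelihood test of edgeR with Benjamini-Hochberg adjustment. The subunits of this complex therefore did not move in 1 direction. Without shlucif replicate 2 the call for Vps52 was lost (adjusted p = 0.113 by the same edgeR test).

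Arl8a (ENSMUSG00000026426, chr1:135146824-135156269, plus strand) and Arl8b (ENSMUSG00000030105, chr6:108783099-108825278, plus strand) sit on lysosomes and link them to kinesin and to tethering proteins, and with 79.2% identical coding bases they are the closest pair among the 10. Arl8a was at 49.1, 48.1 and 53.4 FPKM with shlucif, 38.8, 40.2 and 39.9 FPKM with shArf1-1, and 36.4, 37.8 and 40.7 FPKM with shArf1-2. Every Arf1-deficient library was below every shlucif library. Arl8b was at 27.4, 29.8 and 30.8 FPKM with shlucif, 29.0, 24.7 and 28.3 FPKM with shArf1-1, and 27.2, 24.6 and 26.3 FPKM with shArf1-2. Its ranges overlapped, although 6 of 6 Arf1-deficient libraries were below the shlucif mean in CPM. The log2 fold change was -0.43 (standard error 0.059, adjusted p = 3.7e-06) for Arl8a and -0.20 (standard error 0.065, adjusted p = 0.0112) for Arl8b by the quasi-likelihood test of edgeR with Benjamini-Hochberg adjustment. With shArf1-1 and shArf1-2 alone, Arl8a fell by 0.40 and 0.46 on the log2 scale, and Arl8b by 0.15 and 0.24. Neither gene passed between the hairpins (adjusted p = 0.546 and 0.401 by the same edgeR test). The call for Arl8a held in all 17 alternatives.

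The call for Arl8b was lost without shlucif replicate 3 (adjusted p = 0.0818) and under library size scaling (adjusted p = 0.065) by the quasi-likelihood test of edgeR with Benjamini-Hochberg adjustment, and with limma on log2(FPKM + 1) and log2(FPKM + 0.1) (adjusted p = 0.0798 and 0.0794), and over 17 alternatives the adjusted p ranged from 0.00495 to 0.0818. With shArf1-1 alone it was lost in 6 of 17 alternatives: without shlucif replicate 2 or 3 or shArf1-1 replicate 2 (adjusted p = 0.0755, 0.166 and 0.19 by the same edgeR test), under library size scaling (adjusted p = 0.165), and with limma on either FPKM scale (adjusted p = 0.205 and 0.205). The Arl8a to Arl8b ratio in FPKM was 1.79, 1.61 and 1.73 with shlucif, 1.34, 1.63 and 1.41 with shArf1-1, and 1.34, 1.54 and 1.55 with shArf1-2. It was mostly lower in Arf1-deficient libraries, with overlap of the ranges. The mean log2 ratio differed by -0.23 (two-sided exact permutation p = 0.0476, 0.0238 being the smallest possible, and 0.0635 adjusted over the 4 pairs).

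Of 18 genes for BORC, the complex that brings Arl8 to lysosomes, and for Arl8 effectors, 17 were tested, of which 6 were higher, 6 lower and 5 not past the threshold. That is 70.6% of those tested, beside 64.5% of all genes, and their median log2 fold change was -0.027. Plekhm1, an adaptor between Arl8 and lysosomal tethers, was at 12.3, 11.9 and 11.5 FPKM with shlucif, 4.52, 5.51 and 4.66 FPKM with shArf1-1, and 5.74, 5.38 and 5.21 FPKM with shArf1-2. It was lower in each of the 6 Arf1-deficient libraries than in any control, and changed by -1.26 (standard error 0.077, adjusted p = 5.46e-11) by the quasi-likelihood test of edgeR with Benjamini-Hochberg adjustment. Among BORC subunits, Kxd1 changed by -0.67 (standard error 0.078, adjusted p = 3.76e-07), Borcs6 by -0.64 (standard error 0.19, adjusted p = 0.00662) and Borcs7 by 0.65 (standard error 0.22, adjusted p = 0.0136), each by the same edgeR test, so subunits of this complex also moved in both directions. The call for Borcs6 was lost without shlucif replicate 1 (adjusted p = 0.0642 by the same edgeR test), and that for Borcs7 without shlucif replicate 2 or 3 (adjusted p = 0.053 and 0.0788 by the same edgeR test).

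Arl3 (ENSMUSG00000025035, chr19:46531096-46573198, minus strand) releases lipid-modified cargo in cilia, and Arl2 (ENSMUSG00000024944, chr19:6134374-6141548, minus strand), its close relative, acts on cargo carriers and on tubulin folding. Arl3 was at 28.3, 25.9 and 31.1 FPKM with shlucif, 22.6, 20.0 and 23.4 FPKM with shArf1-1, and 22.0, 24.9 and 22.6 FPKM with shArf1-2. All 6 Arf1-deficient libraries were below all shlucif libraries. Its log2 fold change was -0.39 (standard error 0.074, adjusted p = 0.00012) by the quasi-likelihood test of edgeR with Benjamini-Hochberg adjustment, and -0.42 with shArf1-1 and -0.37 with shArf1-2. Arl2 ranged from 6.41 to 6.49 FPKM with shlucif and from 5.13 to 7.16 FPKM in Arf1-deficient libraries. It did not pass, at -0.12 (standard error 0.10, adjusted p = 0.324) by the same edgeR test. With each library left out in turn this fold change ranged from -0.16 to -0.066 and did not pass. With shArf1-2 it passed when shArf1-2 replicate 2 was left out (adjusted p = 0.0245 by the same edgeR test). The Arl2 locus overlaps Batf2 on the other strand, which had at most 1 count in any library. The Arl2 to Arl3 ratio in FPKM was 0.229, 0.250 and 0.206 with shlucif, 0.280, 0.347 and 0.254 with shArf1-1, and 0.234, 0.288 and 0.259 with shArf1-2. The ranges overlapped, and the mean log2 ratio was 0.27 higher in Arf1-deficient cells (two-sided exact permutation p = 0.0476, 0.0238 being the smallest possible, and 0.0635 adjusted over the 4 pairs).

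Of 11 Arl2 and Arl3 partner genes 10 were tested, and 4 were higher, 2 lower and 4 not past the threshold, near the 64.5% of all tested genes that passed. Their median log2 fold change was -0.0011. Elmod2, a GTPase-activating protein for Arl2, changed by 0.81 (standard error 0.12, adjusted p = 1.5e-05), Arl2bp, which binds both proteins, by 0.44 (standard error 0.058, adjusted p = 2.06e-06), and Tbcc, a tubulin folding cofactor, by 0.34 (standard error 0.10, adjusted p = 0.00394), each by the quasi-likelihood test of edgeR with Benjamini-Hochberg adjustment. Pde6d, a carrier of prenylated cargo, changed by -0.28 (standard error 0.069, adjusted p = 0.00162) by the same edgeR test. Rp2, the GTPase-activating protein for Arl3, had an adjusted p of 0.998 over both hairpins by the same edgeR test. Its mean lay on opposite sides of the control with the 2 hairpins. It was 2.53 ± 0.285 FPKM with shlucif, 2.27 ± 0.388 FPKM with shArf1-1 and 3.00 ± 0.272 FPKM with shArf1-2 (SD, n = 3). The difference between hairpins, a call lost in 10 of 17 alternatives, is given with the others below.

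Arl4c (ENSMUSG00000049866, chr1:88673125-88702221, minus strand) and Arl4a (ENSMUSG00000047446, chr12:40005447-40038025, minus strand) recruit cytohesins to the plasma membrane. Arl4c had 37, 46 and 51 counts with shlucif (0.489, 0.626 and 0.681 FPKM) and 0 counts in each of the 6 Arf1-deficient libraries. A low level in the controls was thus matched by no count at all with either hairpin. With a mean of 3.38 ± 0.546 CPM (SD, n = 3) in shlucif cells and a floor of 3 counts in the smallest library, 0.266 CPM, it was at least 12.7-fold lower in Arf1-deficient cells. The adjusted p was 1.85e-08 by the quasi-likelihood test of edgeR with Benjamini-Hochberg adjustment. Arl4c passed the count filter through its control counts alone, so this test could only call it lower and adds nothing to the counts. The floor covers counting error only, and at this depth a lower level than the floor was not detectable. Of the 20 macrophage markers, 14 of 16 tested fell in the same libraries, beside 32.9% of all tested genes that were lower. Those 14 passed the count filter through their control counts alone, so their calls could only be lower. The summed level of the 20 went from 318 to 386 CPM with shlucif to 5.77 to 9.75 CPM in Arf1-deficient libraries, with Lyz2 the most abundant in controls. Itgam, C1qb, C1qc and Ctss, with at least 11 counts in every control, were at 0 in all 6. Aif1, C1qa, Cx3cr1 and P2ry12 were also at 0 in all 6, but had at most 5 counts in any control. Their part in the Arl4c result was not tested.

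Arl4a was at 1.68, 1.72 and 1.72 FPKM with shlucif, 2.01, 1.08 and 1.57 FPKM with shArf1-1, and 1.64, 1.68 and 1.31 FPKM with shArf1-2. The control libraries lay close together and the Arf1-deficient libraries spread on both sides of them. Its log2 fold change was -0.20 (standard error 0.15, adjusted p = 0.243) by the quasi-likelihood test of edgeR with Benjamini-Hochberg adjustment. With each library left out in turn this fold change ranged from -0.29 to -0.13 and did not pass. With shArf1-1 it passed when shArf1-1 replicate 1 was left out (adjusted p = 0.0305 by the same edgeR test). All 4 cytohesin genes were tested: 1 was higher, 2 were lower and 1 did not pass, beside 64.5% of all tested genes past the threshold. Cyth3 was at 9.19, 8.43 and 8.59 FPKM with shlucif, 32.5, 33.1 and 31.9 FPKM with shArf1-1, and 29.3, 29.1 and 30.0 FPKM with shArf1-2. Each Arf1-deficient library was above every control, and it changed by 1.76 (standard error 0.065, adjusted p = 3.22e-14) by the same edgeR test. Cyth4, known mainly from blood cells, had 142, 118 and 123 counts with shlucif, 12, 19 and 20 counts with shArf1-1, and 23, 17 and 20 counts with shArf1-2. It changed by -2.84 (standard error 0.19, adjusted p = 1.98e-10) and Cyth1 by -0.29 (standard error 0.079, adjusted p = 0.00333), both by the same edgeR test. Cyth4 fell in the same libraries as the macrophage markers, whose part in its fall was not tested. The median over the 4 cytohesins was -0.10.

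Arl6 (ENSMUSG00000022722, chr16:59612949-59639391, minus strand) recruits the BBSome, a coat-like complex that carries membrane proteins in cilia. It ranged from 5.21 to 6.48 FPKM with shlucif and from 4.60 to 6.11 FPKM in Arf1-deficient libraries, with overlap. Its log2 fold change was -0.10 (standard error 0.12, adjusted p = 0.469) by the quasi-likelihood test of edgeR with Benjamini-Hochberg adjustment, smaller in size than its standard error. With each library left out in turn the fold change of Arl6 ranged from -0.18 to -0.034 and did not pass. All 8 BBSome subunit genes were tested, of which 4 were higher and 4 did not pass, beside 64.5% of all tested genes past the threshold and 31.6% higher. Their median was 0.19. Ttc8 changed by 0.49 (standard error 0.087, adjusted p = 7.32e-05), Bbip1 by 0.45 (standard error 0.11, adjusted p = 0.0014), Bbs1 by 0.42 (standard error 0.18, adjusted p = 0.0417) and Bbs2 by 0.26 (standard error 0.10, adjusted p = 0.0317), each by the same edgeR test. The calls for Bbs1 and Bbs2 were both lost without shlucif replicate 2 (adjusted p = 0.205 and 0.0918), shlucif replicate 3 (adjusted p = 0.117 and 0.127) or shArf1-2 replicate 3 (adjusted p = 0.0564 and 0.0616) by the same edgeR test, which leaves 2 subunits past the threshold. Bbs1 was also lost without shArf1-1 replicate 2 or 3 (adjusted p = 0.0847 and 0.0759) and with the replicate block (adjusted p = 0.0675), and Bbs2 without shArf1-2 replicate 1 (adjusted p = 0.072), by the same edgeR test, with ranges of 0.0206 to 0.205 and 0.00691 to 0.127 over 17 alternatives. The Arl6 locus overlaps 4930547E14Rik on the other strand.

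The rest of the family is given for comparison. Of 14 other Arl and Arl-related GTPase genes 10 were tested, and 4 were higher (40.0%, beside 64.5% of all tested genes past the threshold) while 6 did not pass, with a median log2 fold change of 0.20. Arl16 changed by 0.85 (standard error 0.10, adjusted p = 4.84e-07), Arl10 by 0.63 (standard error 0.094, adjusted p = 8.74e-06) and Sar1a, the GTPase of the COPII coat, by 0.54 (standard error 0.071, adjusted p = 2.11e-06), each by the quasi-likelihood test of edgeR with Benjamini-Hochberg adjustment. Over both hairpins, Arl13b, Arl15, Arl4d, Arl5c, Trim23 and Sar1b did not pass (adjusted p = 0.239, 0.0582, 0.208, 0.82, 0.326 and 0.132 by the same edgeR test). Arl15 passed without shArf1-1 replicate 1 or 2 (adjusted p = 0.0407 and 0.0333) and under library size scaling (adjusted p = 0.0191) by the same edgeR test, and with limma on log2(FPKM + 1) and log2(FPKM + 0.1) (adjusted p = 0.0201 and 0.0196). Sar1b passed without shArf1-2 replicate 3 (adjusted p = 0.041) and under library size scaling (adjusted p = 0.0401) by the same edgeR test. With shArf1-1 alone, 7 of the 10 passed, beside 67.5% of all tested genes: 5 were higher, Sar1b among them at 0.36 (standard error 0.069, adjusted p = 2.15e-05), and Arl4d and Arl13b were lower, at -0.44 (standard error 0.14, adjusted p = 0.00534) and -0.34 (standard error 0.13, adjusted p = 0.0246), each by the same edgeR test. The call for Arl4d was lost without shArf1-1 replicate 3 (adjusted p = 0.0766) and that for Arl13b without shlucif replicate 3 or shArf1-1 replicate 1 (adjusted p = 0.125 and 0.132) and under library size scaling (adjusted p = 0.0629) by the same edgeR test, and with limma on either FPKM scale (adjusted p = 0.0793 and 0.0785). With shArf1-2 alone, Arl4d, Arl13b and Sar1b did not pass, and the difference between hairpins passed for Arl4d (0.41, adjusted p = 0.0384) and Sar1b (-0.36, adjusted p = 0.000282) but not for Arl13b (adjusted p = 0.137), by the same edgeR test. That for Arl4d was lost in 6 of 17 alternatives, among them those without shArf1-1 replicate 1 or 3 (adjusted p = 0.117 and 0.263) or shArf1-2 replicate 1, 2 or 3 (adjusted p = 0.123, 0.0514 and 0.105 by the same edgeR test). With shArf1-2 alone 5 of the 10 passed, all higher, beside 63.4% of all tested genes. Arl15 was among them at 0.28 (standard error 0.10, adjusted p = 0.0161), a call lost without shlucif replicate 3 or shArf1-2 replicate 1 (adjusted p = 0.0726 and 0.0888), by the same edgeR test, and the difference between hairpins did not pass for it (adjusted p = 0.439 by the same edgeR test). Arl9, Arl11, Arl13a and Arl14 had too few counts to pass the filter. Arl11, named after its values were seen, had 14, 9 and 10 counts with shlucif, 2, 0 and 2 counts with shArf1-1, and 1, 3 and 1 counts with shArf1-2, with the controls highest. Where an alternative kept it, it was called lower in Arf1-deficient cells: with no filter on low counts (adjusted p = 0.000246) and without shlucif replicate 2 (adjusted p = 0.000675), by the same edgeR test. Arl11 was picked for these counts, so the p-values add nothing to them and no conclusion is drawn.

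All 6 Arf GTPase genes were tested, 1 higher, 3 lower and 2 not past the threshold (66.7% past, beside 64.5% of all tested genes), and Arf1 among the lower ones is the hairpins' target. Arf5 changed by -0.58 (standard error 0.069, adjusted p = 4.62e-07), Arf6, which acts at the plasma membrane downstream of cytohesins, by -0.80 (standard error 0.054, adjusted p = 2.35e-10), and Arf4 by 0.18 (standard error 0.077, adjusted p = 0.0494), each by the quasi-likelihood test of edgeR with Benjamini-Hochberg adjustment. Arf2 and Arf3 did not pass (adjusted p = 0.146 and 0.626 by the same edgeR test). The Arf4 call was lost in 10 of 17 alternatives: without shlucif replicate 1, 2 or 3 (adjusted p = 0.178, 0.123 and 0.061) or shArf1-1 replicate 1, 2 or 3 (adjusted p = 0.0972, 0.0705 and 0.0906), with upper quartile scaling (adjusted p = 0.055), the filter of 10 counts (adjusted p = 0.0652) and the replicate block (adjusted p = 0.0648), all by the same edgeR test, and with DESeq2 (adjusted p = 0.0728). Over all 17 alternatives the adjusted p of Arf4 ranged from 0.00889 to 0.178, the same edgeR test giving most of them. The median over the 6 genes was -0.34.

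**Figure D3:**
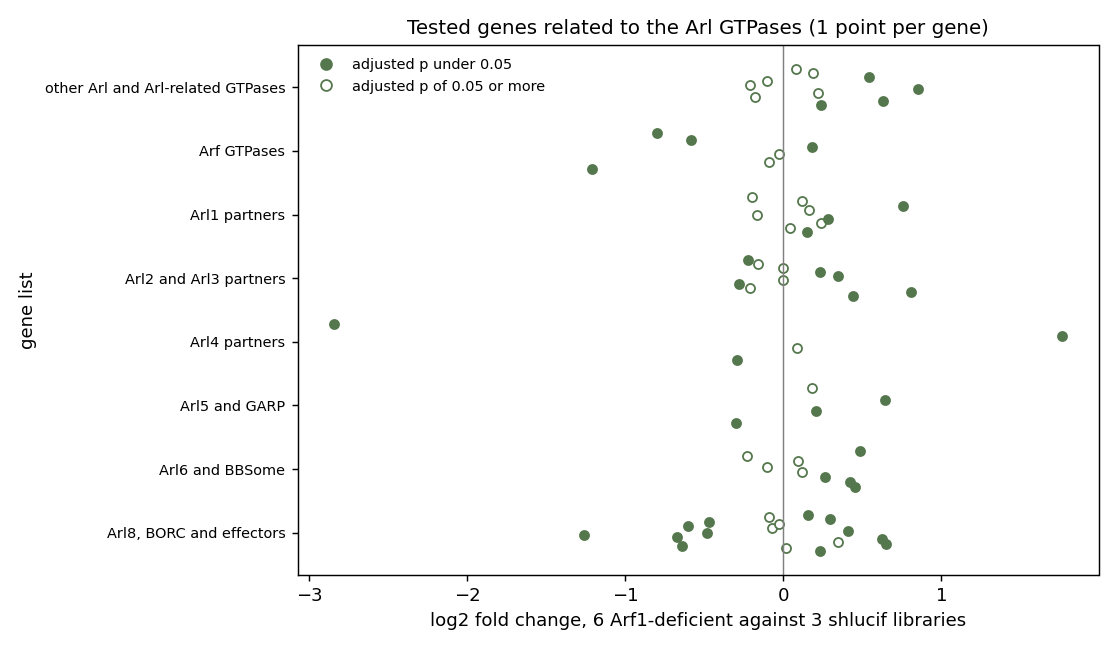
Log2 fold change in 6 Arf1-deficient against 3 shlucif libraries (horizontal axis) of every tested gene in 8 lists related to the Arl GTPases, 1 point per gene, filled where the adjusted p is under 0.05. Points lie on both sides of 0 in most lists, and the most distant are the cytohesins Cyth4 (-2.84) and Cyth3 (1.76), then Plekhm1 (-1.26) and the targeted Arf1 (-1.21).

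The hairpin targets are shown with the most similar stretches of the Arl transcripts, since the Arl genes share sequence with Arf1 (Arl1 has 60.7% identical coding bases). Both targets have 21 bases and lie in coding exons of Arf1, on the minus strand of GRCm38: that of shArf1-1 in exon 3 at chr11:59213222-59213242 and that of shArf1-2 in exon 2 at chr11:59213386-59213406. Over the 10 genes the closest stretch had between 5 and 8 mismatches for the shArf1-1 target and between 4 and 8 for the shArf1-2 target. Those with 4 or 5 mismatches lie in coding exons of Arl1 (chr10:88735915-88735935 for shArf1-1 and chr10:88733620-88733640 for shArf1-2, plus strand), Arl4a (chr12:40036636-40036656, minus strand), Arl5a (chr2:52416644-52416664, minus strand) and Arl5b (chr2:15068171-15068191, plus strand). Capitals mark bases that differ from the target, and each sequence is 5′ to 3′ on the strand of its gene.
shArf1-1 target: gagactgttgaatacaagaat
Arl1, nearest to shArf1-1: gagacGgtGACatacaaAaat
shArf1-2 target: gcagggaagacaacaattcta
Arl4a, nearest to shArf1-2: gcTggAaagacaacaGttTta
Arl1, nearest to shArf1-2: gcTggAaaAacaacaattTtG
Arl5a, nearest to shArf1-2: gcTgggaagacGacCatCctT
Arl5b, nearest to shArf1-2: gcGgggaaAacCacCattctG

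Of these genes, Arl4a did not pass with shArf1-2 (adjusted p = 0.219), Arl1 rose with shArf1-1 and did not pass with shArf1-2, Arl5a rose with both hairpins, and Arl5b fell with both, by the quasi-likelihood test of edgeR with Benjamini-Hochberg adjustment, with the lost calls of Arl5b given above. Whether a hairpin acts on any of these stretches was not tested.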

How the data were processed

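The 9 N2a libraries were grouped by their labels into shlucif, shArf1-1 and shArf1-2. The authors deposited 1 table with a read count per gene, not normalized, and an FPKM value, which equals the count divided by gene length and by the library total (largest relative gap 1.9e-07). mm10 is named in the submitters' processing notes, and the aligner, counting tool and use of strand are not given in the sources used here. The column names shArf2 were read as shArf1-2. Of the table, 8 continuation lines that hold no gene were dropped, and since only 514 of 21795 genes start where GENCODE M21 (GRCm38) has them, coordinates are GENCODE's by identifier.

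Counts were tested with edgeR 4.0.16 (filterByExpr, TMM, robust glmQLFit, glmQLFTest) in R 4.3.3, in a fit of 6 Arf1-deficient against 3 shlucif libraries and in a fit of 3 groups, with Benjamini-Hochberg adjustment over 12448 genes at 0.05. A standard error is the log2 fold change divided by the square root of F. Totals between 11182479 and 15594615 counts set the precision, and 3 counts were the floor. Ratios of paralogs were tested by exact permutation (scipy 1.17.1). The tests were tested on simulated data first. Hairpin targets are from the paper's supplementary table and were compared with GENCODE M21 transcripts. Alternatives were scaling by library size or upper quartile, DESeq2 1.42.0, no filter, at least 10 counts in every library, a replicate block, limma 3.58.1 on log2 FPKM with 1 or 0.1 added, the average of the hairpin contrasts, a minimum log2 fold change of 1, ratios of counts or of FPKM + 0.1, and each library left out; adjustment over 3 pairs was added after seeing the data.

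Members and lists (Arf GTPases, other Arl and Arl-related GTPases, 6 partner lists and 7 marker lists, of which 6 are reported) were chosen with earlier results of these data known. Named genes are the 10 members, Arf1, other Arf and Arl genes with 10 or more counts in every library of a group, and in each partner list up to 4 with the largest change past the threshold and any that differs between hairpins.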

Additional observations from a re-analysis of the deposited data

Results flagged for a closer look

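The effects of the hairpins differed by a test of the difference itself for 1 of the 10 Arl genes and for 9 of 68 tested related genes (13.2%), which is no more than the 14.4% of all 12448 tested genes. Arl4c had no count with either hairpin, so it could not differ. In the same comparison 10 of 18 tested neuroblast markers (55.6%) differed, 9 of them lower with shArf1-2, as did 2 of 4 fibroblast markers and 1 of 3 oligodendrocyte markers, all higher with shArf1-2, and their part in the Arl1 difference was not tested. The log2 difference, shArf1-2 against shArf1-1, was -0.31 for Arl1, 0.34 for Arf1, -0.25 for Arf4, -0.22 for Sar1a and -0.36 for Sar1b (adjusted p = 0.000521, 1.16e-05, 0.003, 0.00598 and 0.000282 by the quasi-likelihood test of edgeR with Benjamini-Hochberg adjustment). Without shArf1-1 replicate 3 the adjusted p of Sar1a was 0.0608 by the same edgeR test. The log2 difference was 0.41 for Arl4d, -0.20 for Arfip2, 0.38 for Rp2, -0.16 for Cyth3 and 0.37 for Bbs4 (adjusted p = 0.0384, 0.0302, 0.0485, 0.0337 and 0.0201 by the same edgeR test). For these last 5 the call was lost when single libraries were left out, while the difference kept its sign. The log2 difference and the adjusted p were then, by the same edgeR test: Arl4d without shArf1-1 replicate 1 or 3 or shArf1-2 replicate 1, 2 or 3 (log2 difference between 0.26 and 0.45, adjusted p between 0.0514 and 0.263), Arfip2 without shArf1-1 replicate 1 or 2 or shArf1-2 replicate 1, 2 or 3 (log2 difference between -0.20 and -0.18, adjusted p between 0.0632 and 0.0974), Rp2 without shlucif replicate 2 or 3 or shArf1-1 replicate 1 or 2 or shArf1-2 replicate 1 or 2 (log2 difference between 0.28 and 0.38, adjusted p between 0.052 and 0.184), Cyth3 without shArf1-1 replicate 1 or 2 or shArf1-2 replicate 1, 2 or 3 (log2 difference between -0.18 and -0.14, adjusted p between 0.0569 and 0.131), and Bbs4 without shArf1-1 replicate 1 or shArf1-2 replicate 1 or 3 (log2 difference between 0.33 and 0.37, adjusted p between 0.0569 and 0.0867). Other settings also ended some of these calls: Arl4d with DESeq2 (adjusted p = 0.0623), Arfip2 with limma on log2(FPKM + 0.1) (adjusted p = 0.0503), Rp2 with DESeq2 (adjusted p = 0.0728), limma (adjusted p = 0.0738 and 0.0774) and the replicate block (adjusted p = 0.0626 by the same edgeR test), and Cyth3 with upper quartile scaling (adjusted p = 0.0507 by the same edgeR test) and limma (adjusted p = 0.0928 and 0.0998). The cause was not tested.

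Over all 6 Arf1-deficient libraries, the lowest Arl6 level, 4.60 FPKM in shArf1-1 replicate 2, lay apart from the others, with a gap to the nearest library of 0.679 of the whole range, past Dixon's critical value for 6 values at 0.05. Of 11 such groups of 6 looked at, 1 stood out, and chance does so in about 1 in 20 groups.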

How the results depend on the processing

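Over 427 combinations of a result and an alternative, 404 kept the direction and the side of the threshold, or a count within 1.5 times, and 0 changed direction. Many of these results are counts of genes, which have no direction to change. Without a shlucif library the paralog ratios had too few splits for p to fall under the threshold. Those combinations therefore show no stability. The number of Arl genes past the threshold in Arf1-deficient cells, 7, ranged from 4 to 7 with each library left out in turn (4 without shlucif replicate 3, where Arl1, Arl5b and Arl8b were lost), and was 1 (Arl4c) with a minimum absolute log2 fold change of 1, by that setting's construction. It was 5 under library size scaling and with limma on FPKM, without Arl5b and Arl8b, and 6 with at least 10 counts in every library, which removes Arl4c. Over the same libraries left out, it ranged from 5 to 7 with shArf1-1 and from 6 to 7 with shArf1-2, where the filter of 10 counts gave 5. The paralog ratios passed the threshold with 0.1 FPKM added (Arl5a/Arl5b 0.77, Arl8a/Arl8b -0.23, Arl2/Arl3 0.27). There the Arl4 pair enters the adjustment as tested, and its outcome was set by Arl4c, at 0 in all 6 Arf1-deficient libraries. The pair no longer counts as not passed, which lowers the adjusted p of the other 3, so this setting adds no support for them. They also passed after adjustment over 3 pairs (0.78, -0.23 and 0.27), an alternative chosen after seeing the data. Among 36 named genes past the threshold in Arf1-deficient cells, 10 lost the call under at least 1 of up to 17 alternatives and 26 under none of them, the minimum log2 fold change of 1 not counted here.

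With the replicate block, 7 Arl genes passed in Arf1-deficient cells, 7 with shArf1-1, 6 with shArf1-2 and 1 between hairpins, and 36 in place of 39 related genes. Same-numbered replicates did not deviate together (mean r = 0.007 over 9 pairs, from -0.0822 to 0.0941, 4 of 9 libraries closest to their own number), so the numbers do not pair them. Library size scaling moved the median log2 fold change of all genes by 0.063.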
